A study of Mus musculus with 17 samples.

Results

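Complement genes, 7 of the 56953 genes of the count table, were followed in the prefrontal cortex of 8-month-old mice: C1qa, C1qb, C1qc, C3, C4b, C3ar1 and Serping1. They were taken from the table by symbol, each symbol matched 1 row, and the rule used the symbols alone. The age is that of the extraction protocol in the labels, and a different age is given elsewhere for these cortices. The bulk RNA-seq series holds 17 libraries in 3 genotypes, with 5 WT, 6 PS19 and 6 CgA-KO/PS19 libraries, the latter pair of genotypes being called hTau and CgA-KO/hTau in the sample labels. PS19 mice carry a heterozygous transgene for human tau with the P301S mutation, driven by the Prnp promoter, on a B6C3F1/J background, and this transgene is shared by PS19 and CgA-KO/PS19. CgA-KO/PS19 mice came from crosses with a whole-body Chga knockout, which lacks chromogranin A (CgA), a protein of secretory granules, in every cell from conception on. The knockout had been backcrossed to C57BL/6J and then to B6C3F1/J, and no library of Chga knockout mice without the tau transgene was analysed here. The comparisons ask how the complement genes of the cortex differ with the tau transgene (PS19 against WT), with loss of CgA on top of it (CgA-KO/PS19 against PS19), and between CgA-KO/PS19 and WT.

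Complement is a cascade of plasma and tissue proteins. C1q, assembled from the C1qa, C1qb and C1qc chains, binds its targets and starts the classical pathway, the proteases C1r and C1s cleave C4 and C2, and the resulting convertase cleaves C3. Fragments of C3 mark surfaces for uptake through receptors on phagocytes, the C3a fragment acts through the receptor encoded by C3ar1, and C1 inhibitor, encoded by Serping1, blocks C1r and C1s. In brain, C1q is made mainly by microglia, C3 and C4 are best known from glia under stress, and the pathway is known for the tagging of synapses in development and in models of neurodegeneration.

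Total counts ran from 8838334 in WT replicate 4 to 227651681 in a PS19 library, so that the low genes below rest on few counts in the shallowest library. Chga had 0 counts in 6 of 6 CgA-KO/PS19 libraries and 151.7 to 180.1 CPM (counts per 1000000 counts of the library, TMM-scaled) in the WT libraries. Prnp, the gene whose promoter drives the transgene, was at 832.5 ± 71.0 CPM in WT libraries (SD, n = 5), 2119 ± 174 in those of PS19 and 1561 ± 321 where CgA was also lost (SD, n = 6 each). Mitochondrial genes took 2.56% to 7.94% of counts in WT and PS19 and 13.8% to 18.2% in CgA-KO/PS19 replicates 1 to 3. The Y-linked gene Ddx3y exceeded 1 CPM only in the first 3 replicates of each genotype. The labels give no sex, and these replicate numbers therefore split each genotype into libraries with and without its RNA. The paper counts 3 males in each genotype, the rest being females, and does not say which libraries are theirs. The sets of replicates can therefore not be told apart from sex. The summed level of 8 striatum marker genes was 623.5 to 2467 CPM in WT libraries, 117.7 to 167.2 CPM in PS19 libraries and 157.7 to 1425 CPM in those of CgA-KO/PS19. The summed level of 8 choroid plexus genes was 1114 CPM in WT replicate 5 and 5.06 to 19.8 CPM in the other 16 libraries. The last 3 PS19 libraries resembled each other more than the rest of their group, with a median absolute log2 ratio over genes of 0.055 to 0.067 against 0.126 to 0.172, and CgA-KO/PS19 replicates 1 and 3 differed by 0.092 against 0.177 to 0.482. The chi-square of their counts over genes, each count divided by 3, was 21.1 to 43.6 per degree of freedom, beyond counting error. A value beyond counting error cannot show whether libraries came from separate mice. These libraries were kept as separate samples, as the labels name them.

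The promoters of C1qb and C1qc are shown because both genes are part of 1 cluster and varied together across the libraries. C1qa (chr4:136895917-136898803), C1qb (chr4:136880129-136886187) and C1qc (chr4:136889804-136893065) lie side by side on the minus strand of chromosome 4 in GRCm38, the build called mm10. RefSeq promoters were found for 4 of the 7 genes, C1qb, C1qc, C3 and C3ar1. Below are the bases before the start of each C1q gene, 5′ to 3′ on the minus strand, from RefSeq on GRCm38.p6, with the letters GAGGAA or its reverse complement TTCCTC in capitals, the core that the myeloid factor PU.1 is known to bind. The C1qb stretch is chr4:136886201-136886450 and the C1qc stretch chr4:136893066-136893164.
C1qb: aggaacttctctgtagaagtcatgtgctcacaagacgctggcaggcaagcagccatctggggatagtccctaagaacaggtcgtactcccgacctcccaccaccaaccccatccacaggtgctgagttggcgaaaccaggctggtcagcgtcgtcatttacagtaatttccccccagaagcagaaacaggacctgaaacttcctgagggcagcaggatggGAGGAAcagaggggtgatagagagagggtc
C1qc: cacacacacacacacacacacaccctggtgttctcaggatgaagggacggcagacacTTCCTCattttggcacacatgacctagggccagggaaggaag
The letters began 30 bases before the RefSeq start of C1qb and 193 bases before that of C1qc. The C1qc stretch is shorter because the 151 bases next to its RefSeq start are transcribed in the GENCODE annotation and were left out of the search, as were 4 bases of C3ar1. The letters were not in the windows of C3 and C3ar1, and 23.3% of all 32851 RefSeq promoters held them on either strand within 250 bases before the start. A match is a description of the letters only.

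The C1q genes were the most abundant of the 7 genes per length of transcript. In PS19, C1qa was at 30.5 ± 3.28, C1qb at 24.0 ± 2.33 and C1qc at 21.8 ± 2.22 CPM per kb of the longest coding transcript (SD, n = 6). Serping1 followed at 2.67 ± 0.932, C4b at 1.43 ± 0.084, C3ar1 at 0.539 ± 0.182 and C3 at 0.027 ± 0.019 CPM per kb. C1qb and C1qc were within 1 SD of each other in PS19, and all other neighbours in that order were further apart than their SDs.

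**Figure D1:**
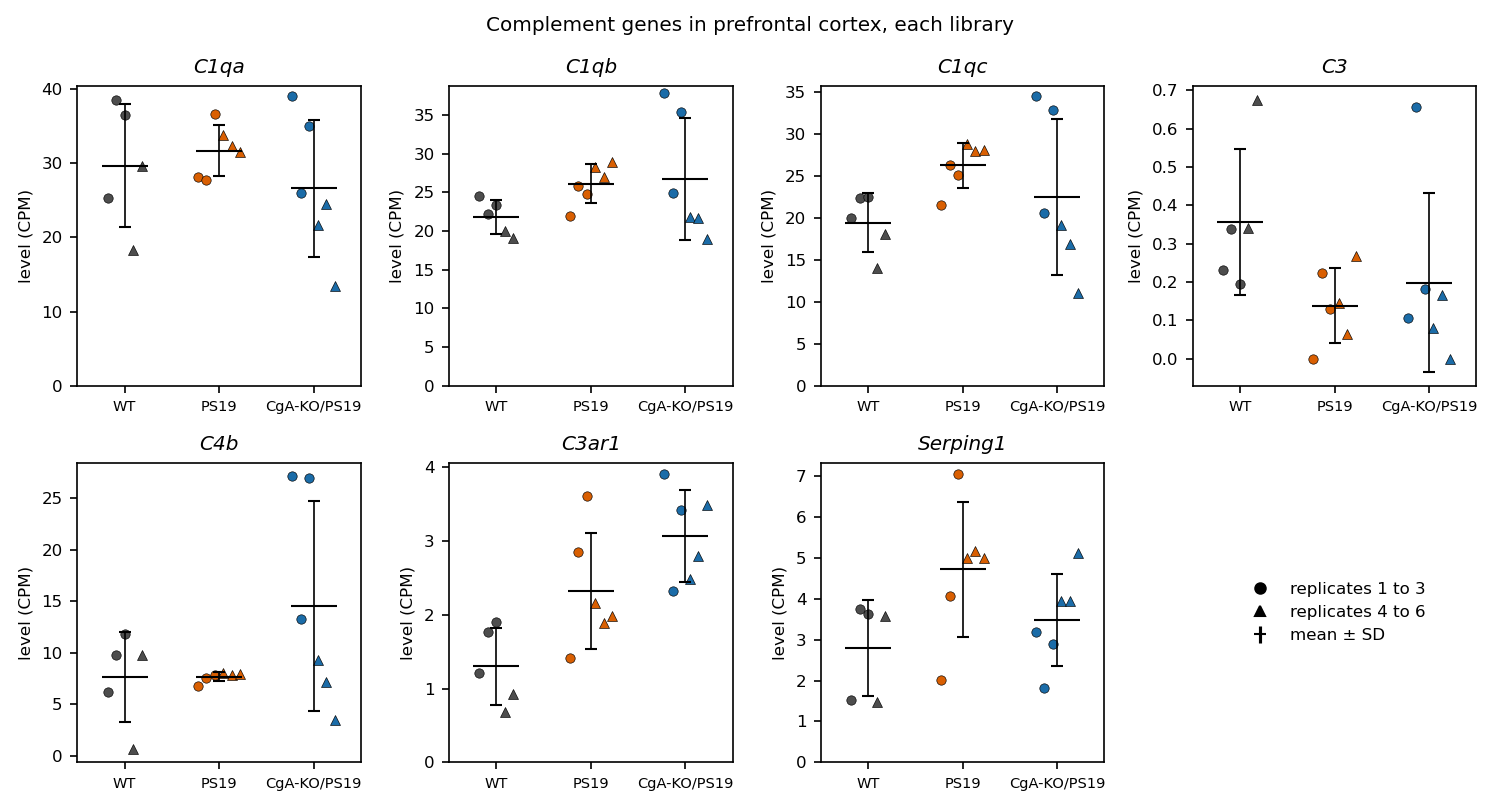
Level of each gene in CPM (vertical axis) in each library by genotype, with circles for replicates 1 to 3, triangles for replicates 4 to 6 and bars for the mean ± SD (WT n = 5, PS19 and CgA-KO/PS19 n = 6). C1qa, C1qb, C1qc and C4b spread most in CgA-KO/PS19, where replicates 1 and 3 were the highest libraries, and every CgA-KO/PS19 library had more C3ar1 than every WT library.

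None of the 7 genes passed the test in PS19 against WT, where 5.9% of the 23062 genes tested did (edgeR quasi-likelihood test, Benjamini-Hochberg adjusted p under 0.05), nor in CgA-KO/PS19 against PS19, where 9.72% did. In both comparisons 0 of 7 genes also passed with DESeq2, and all 7 genes had levels that overlapped between the genotypes. At an unadjusted p under 0.05, 2 of 7 genes passed in PS19 against WT, against 20.9% of all genes, and 0 of 7 in CgA-KO/PS19 against PS19, against 27.8% of all genes. In CgA-KO/PS19 against WT, 1 of 7 genes, C3ar1, passed by both tools with the higher level in CgA-KO/PS19, against 6.46% of all genes in either direction and 3.56% in the higher direction. The median log2 fold change of the 7 genes was 0.26 in PS19 against WT, 0.04 in CgA-KO/PS19 against PS19 and 0.27 in CgA-KO/PS19 against WT, beside medians of 0.01, 0.03 and 0.01 over all genes. The 3 comparisons share libraries pairwise and are not independent of each other.

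**Figure D2:**
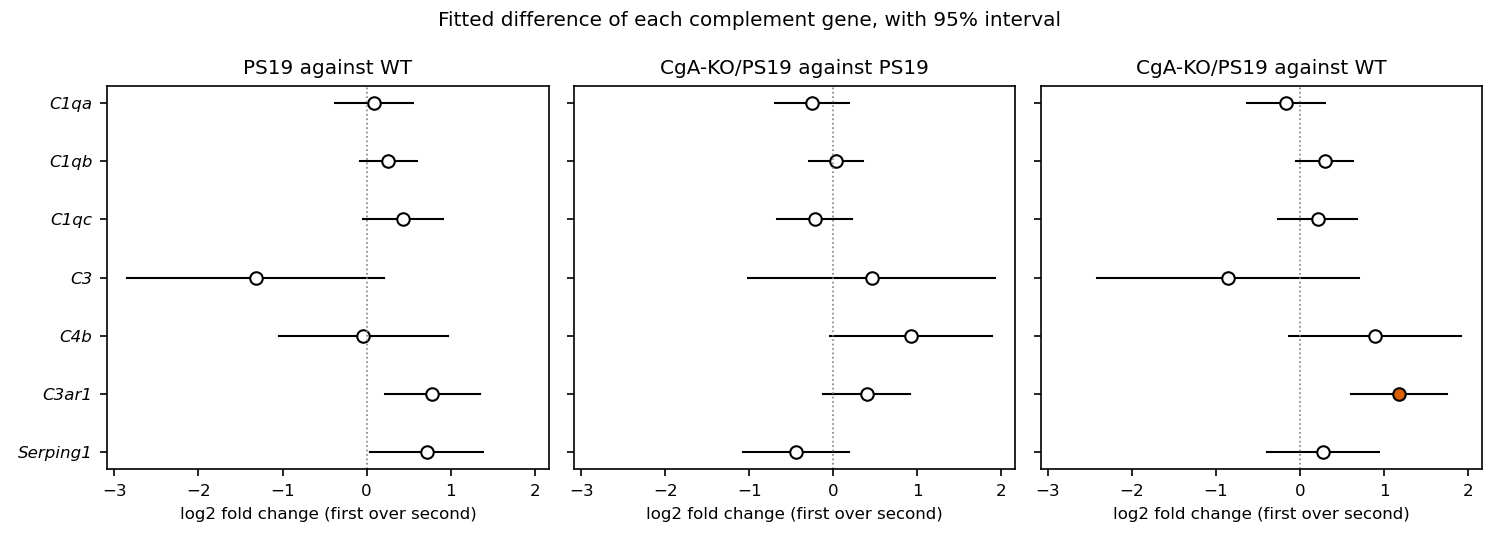
Fitted log2 fold change (horizontal axis) of each gene in the 3 comparisons, first genotype over second, with its 95% interval as a line. A filled point passed the test, which only C3ar1 in CgA-KO/PS19 against WT did, and the intervals of C3 and C4b are the widest.

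C1qa, the A chain of C1q, was at 25.3, 38.6, 36.5, 18.4 and 29.6 CPM in WT replicates 1 to 5. Its lowest, median and highest levels were 27.7, 32.0 and 36.6 CPM in PS19 and 13.5, 25.2 and 39.1 CPM in CgA-KO/PS19. The WT and CgA-KO/PS19 libraries spread around the PS19 libraries on both sides, and the 3 genotypes overlapped. The log2 fold change was 0.09 (SE 0.22, 95% interval -0.38 to 0.55) in PS19 against WT and -0.25 (SE 0.21, -0.69 to 0.19) in CgA-KO/PS19 against PS19.

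C1qb, the B chain, was at 24.5, 22.2, 23.3, 20.0 and 19.1 CPM in WT. It ran from 21.97 over a median of 26.4 to 28.9 CPM in PS19, and from 19.0 over 23.4 to 37.8 CPM in CgA-KO/PS19. All PS19 libraries but replicate 1 lay above every WT library, while CgA-KO/PS19 held both the lowest and the highest level of the 17. The log2 fold change was 0.26 (SE 0.16, 95% interval -0.08 to 0.60) in PS19 against WT, 0.04 (SE 0.15, -0.28 to 0.36) in CgA-KO/PS19 against PS19 and 0.29 (SE 0.16, -0.04 to 0.63) in CgA-KO/PS19 against WT. In replicates 4 to 6 alone, with 2 WT libraries, the step from WT to PS19 passed at 0.55 (SE 0.13, adjusted p = 0.0472, edgeR), and in replicates 1 to 3 it was 0.05 (SE 0.15, adjusted p = 0.921). These WT libraries were the shallowest one and the one with the high choroid plexus level, and PS19 replicates 4 to 6 were near-identical. The difference between the sets was -0.47 (SE 0.20, adjusted p = 0.464, edgeR interaction).

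C1qc, the C chain, was at 20.0, 22.4, 22.5, 14.0 and 18.1 CPM in WT. It ran from 21.5 over a median of 27.1 to 28.8 CPM in PS19 and from 11.1 over 19.9 to 34.5 CPM in CgA-KO/PS19. As for C1qb, only PS19 replicate 1 fell within the WT range. The log2 fold change was 0.43 (SE 0.23, 95% interval -0.04 to 0.90) in PS19 against WT and -0.22 (SE 0.21, -0.67 to 0.23) in CgA-KO/PS19 against PS19.

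The ratio of C1qb to C1qc counts varied little in PS19, from 0.969 to 1.03, and more in the other genotypes, from 0.991 to 1.42 in WT and from 1.08 to 1.72 in CgA-KO/PS19. Every CgA-KO/PS19 library thus had a higher ratio than every PS19 library, a difference seen after the values were known and not tested. Over the 17 libraries the log2 levels of C1qb and C1qc had a Pearson r of 0.89, C1qa and C1qc of 0.86 and C1qa and C1qb of 0.62, a description over libraries that also share depth and tissue content. The genes that followed C1qb most closely were Sardh, Tyrobp and Tspan12 (r 0.96, 0.95 and 0.91 over 17 libraries, among 15474 genes), Tyrobp being a signalling adaptor of microglia. Those most like C1qa were Nxn, Vmac and Inpp5d (r 0.91, 0.91 and 0.90), and those most like C1qc were Prex1, Oaf and Enho (r 0.96, 0.95 and 0.95).

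The 10 microglia marker genes, among them Cx3cr1, P2ry12, Tmem119 and Csf1r, were detected in all genotypes, with summed levels of 226.4 to 247.4 CPM in WT libraries, 205.4 to 264.3 in PS19 libraries and 154.8 to 240.2 in those of CgA-KO/PS19. Of these 10 genes, 0 passed the test in PS19 against WT and in CgA-KO/PS19 against PS19, beside 5.9% and 9.72% of all genes. At an unadjusted p under 0.05, 1 and 5 of the 10 passed, beside 20.9% and 27.8% of all genes. The sum of the C1q genes over that of the list was 0.218 to 0.364 in WT libraries, 0.302 to 0.409 in PS19 libraries and 0.281 to 0.482 in those of CgA-KO/PS19, so that the genotypes overlapped. In bulk tissue, fewer cells of a type and less RNA per cell cannot be told apart.

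**Figure D3:**
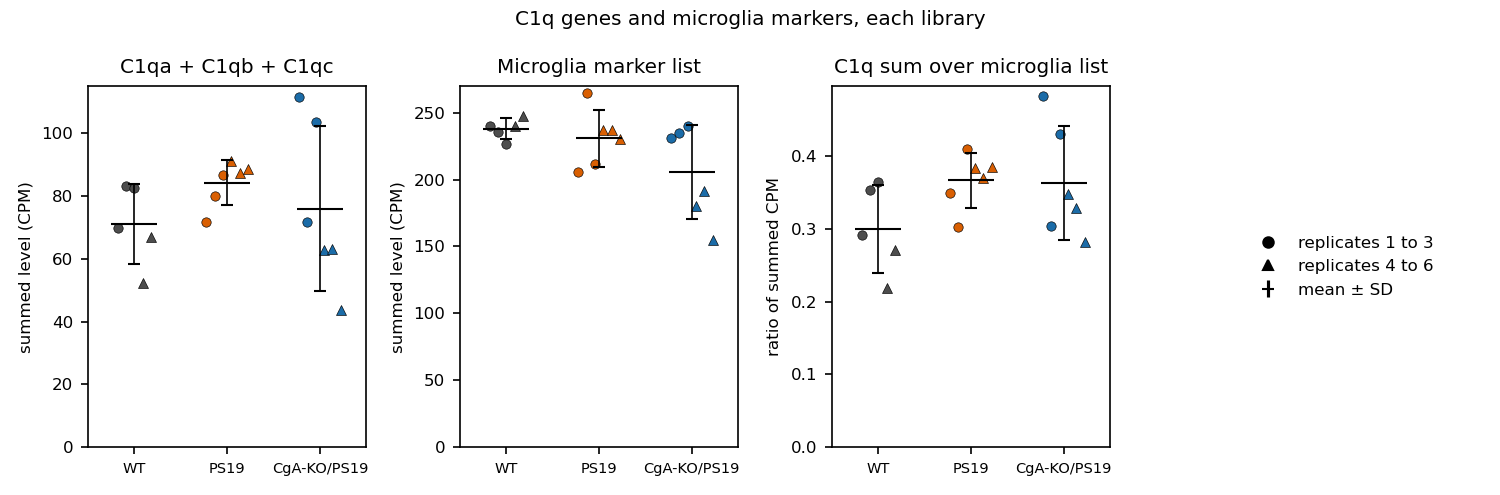
Summed level of the 3 C1q genes in CPM, summed level of the 10 microglia markers in CPM and the ratio of these sums (vertical axes) in each library by genotype, with circles for replicates 1 to 3, triangles for replicates 4 to 6 and bars for the mean ± SD. CgA-KO/PS19 replicates 4 to 6 were the 3 lowest libraries for the microglia list, and the ratios of the genotypes overlap.

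The 2 sets of replicates differed for C1qb and C1qc in CgA-KO/PS19 against PS19. In replicates 1 to 3, CgA-KO/PS19 against PS19 gave a log2 fold change of 0.44 for C1qb and 0.27 for C1qc, and in replicates 4 to 6 it gave -0.43 for C1qb and -0.84 for C1qc. The difference between the sets was 0.87 for C1qb (SE 0.19, adjusted p = 0.0101, edgeR interaction) and 1.11 for C1qc (SE 0.29, adjusted p = 0.0229), in a test chosen after seeing the data. It was 0.83 for C1qa (SE 0.33, adjusted p = 0.124) and 1.84 for C4b (SE 0.74, adjusted p = 0.120). These 2 of 7 genes stand beside 11.7% of all 23062 genes that passed the same interaction test. For the other comparisons 0 of 7 genes passed it, beside 0.0564% of genes in PS19 against WT and 5.47% in CgA-KO/PS19 against WT. At an unadjusted p under 0.05, 4 of 7 genes, C1qa, C1qb, C1qc and C4b, passed it in CgA-KO/PS19 against PS19, beside 27.4% of all genes. C1qb alone passed at that level in PS19 against WT, beside 10.1% of all genes, and 0 of 7 did in CgA-KO/PS19 against WT, beside 21.4%. PS19 replicates 4 to 6 were near-identical, and CgA-KO/PS19 replicates 1 and 3 were the most alike of their group. The SEs and p-values of the interaction test count each of these libraries as a separate sample. The sets also differed in Ddx3y. CgA-KO/PS19 replicates 1 to 3 were the libraries with 13.8% to 18.2% mitochondrial counts against 3.84% to 10.9% in replicates 4 to 6. Within CgA-KO/PS19 the striatum list summed to 304.8 to 1425 CPM in replicates 1 to 3 and to 157.7 to 169.8 CPM in replicates 4 to 6. A list of astrocyte markers summed to 1360 to 1508 CPM and to 743.5 to 969.6 CPM in the same order. These differences cannot be told apart.

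**Figure D4:**
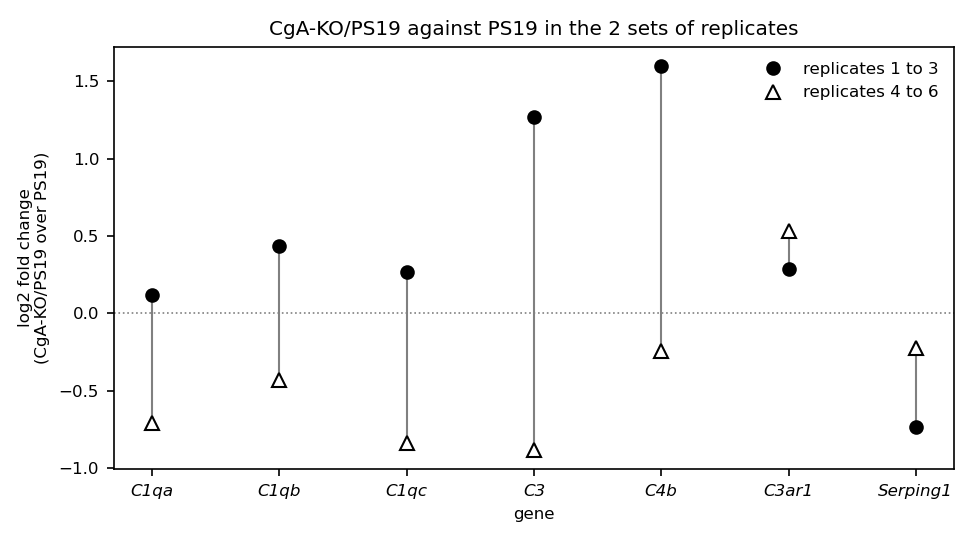
Log2 fold change of CgA-KO/PS19 over PS19 (vertical axis) for each gene (horizontal axis), fitted separately for replicates 1 to 3 (circles) and replicates 4 to 6 (triangles) in 1 model. For C1qa, C1qb, C1qc, C3 and C4b the circle lies above 0 and the triangle below it, and the difference passed the test for C1qb and C1qc.

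C4b, which encodes the complement component C4 of the mouse, has a close copy in C4a, and the copies are shown because the counts of the pair depend on how reads were shared out. C4b (chr17:34728380-34743882) and C4a (chr17:34809092-34823464) lie on the minus strand of chromosome 17 in GRCm38, in the same region as C2 and Cfb. Their transcripts were identical at 96.1% of 5367 aligned bases, and 16.5% of all 100-base windows of C4b occurred unchanged in C4a, against 0% shared with another gene for the other 6 genes. The 100-base stretch that differed most between them is in exon 11, with the 15 mismatches in capitals, at chr17:34740344-34740443 for C4b and chr17:34819863-34819962 for C4a.
C4b: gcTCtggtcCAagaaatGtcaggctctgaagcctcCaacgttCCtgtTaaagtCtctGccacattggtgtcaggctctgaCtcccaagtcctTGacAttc
C4a: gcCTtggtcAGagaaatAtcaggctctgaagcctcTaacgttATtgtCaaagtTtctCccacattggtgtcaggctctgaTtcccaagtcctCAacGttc
By contrast, this stretch of exon 2 is the same in both, at chr17:34743513-34743612 in C4b and chr17:34823092-34823191 in C4a.
Both: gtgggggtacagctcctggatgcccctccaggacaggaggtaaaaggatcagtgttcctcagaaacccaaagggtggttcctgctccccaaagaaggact
The C4a count was between 0 and 0.211 times that of C4b in the 17 libraries.

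C4b was the gene with the most uneven spread. It was at 6.16, 9.82, 11.8, 0.684 and 9.74 CPM in WT replicates 1 to 5, the value of replicate 4 resting on 6 counts. In PS19 it lay between 6.79 and 8.00 CPM with a median of 7.84, and in CgA-KO/PS19 it ran from 3.46 over a median of 11.3 to 27.1 CPM. CgA-KO/PS19 replicates 1 and 3, the most alike of their group, were at 27.1 and 26.9 CPM, above all other libraries. Replicate 6 was below every PS19 library. The striatum list was at 1398 and 1425 CPM in CgA-KO/PS19 replicates 1 and 3, and at 157.7 to 304.8 CPM in the rest of that group. The astrocyte markers summed to 1508 and 1388.5 CPM in replicates 1 and 3, 1360 in replicate 2 and 743.5 to 969.6 in replicates 4 to 6. The mean was 7.67 ± 0.452 CPM in PS19 libraries against 14.5 ± 10.2 CPM in those of CgA-KO/PS19 (SD, n = 6 each), a log2 fold change of 0.93 (SE 0.46, 95% interval -0.04 to 1.89, adjusted p = 0.197, edgeR).

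Within replicates 1 to 3 alone, C4b rose 1.61 on the log2 scale in CgA-KO/PS19 against PS19 (SE 0.30, adjusted p = 0.00432, edgeR), and within replicates 4 to 6 it was at -0.26 (SE 0.66, adjusted p = 0.881). Without CgA-KO/PS19 replicates 1 to 3 its log2 fold change was -0.21 (adjusted p = 0.843, edgeR, an alternative chosen after seeing the data). In PS19 against WT the log2 fold change was -0.04 (SE 0.48, 95% interval -1.05 to 0.97). Astrocytes are a known source of C4 in brain, and the 8 astrocyte markers, among them Gfap and Aqp4, summed to 711.2 to 935.0 CPM in WT libraries, 769.2 to 1025 in PS19 libraries and 743.5 to 1508 in those of CgA-KO/PS19, with 2 of 8 higher and 0 lower in CgA-KO/PS19 against PS19, beside 5.5% and 4.22% of all genes. Their part in the levels of C4b was not tested. The genes most like C4b were Gm7901, Gngt2 and 2900076A07Rik (r 0.96, 0.96 and 0.95 over 17 libraries).

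C3 (chr17:57203970-57228136), the component on which the pathways converge, was barely detected, with 0 to 70 counts per library. It was at 0.231, 0.338, 0.194, 0.342 and 0.676 CPM in WT. It was at most 0.268 CPM in PS19, with a median of 0.138, and at most 0.657 CPM in CgA-KO/PS19, with a median of 0.136. In PS19 replicate 1 and CgA-KO/PS19 replicate 6 it had 0 counts. The log2 fold change of -1.32 in PS19 against WT had an SE of 0.73 and a 95% interval of -2.85 to 0.21, and that of 0.46 in CgA-KO/PS19 against PS19 an interval of -1.01 to 1.93, so that a several-fold decrease in the first comparison and a several-fold increase in the second lay within the intervals and were not detectable at this depth. Tas1r1, Calcrl and Cachd1 were the genes most like it, with r of 0.79, 0.79 and 0.78.

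C3ar1 (chr6:122847138-122856161), the receptor for C3a on microglia and other myeloid cells, differed between CgA-KO/PS19 and WT. It was at 1.21, 1.77, 1.91, 0.684 and 0.927 CPM in WT. It had a lowest, median and highest level of 1.42, 2.07 and 3.61 CPM in PS19 and 2.33, 3.11 and 3.91 CPM in CgA-KO/PS19. Every CgA-KO/PS19 library lay above every WT library, as did those of 2.06% of all genes, and PS19 overlapped with both. C3ar1 was 2.27-fold higher in CgA-KO/PS19 than in WT, a log2 fold change of 1.18 (SE 0.27, 95% interval 0.61 to 1.75, adjusted p = 0.0158, edgeR). The step from WT to PS19 was 0.78 (SE 0.27, adjusted p = 0.0966) and that from PS19 to CgA-KO/PS19 0.40 (SE 0.25, adjusted p = 0.303), neither past the threshold. In replicates 4 to 6 alone, with 2 WT libraries, the step from WT to PS19 was 1.27 (SE 0.28, adjusted p = 0.0374, edgeR), and in replicates 1 to 3 it was 0.68 (SE 0.34, adjusted p = 0.383). WT replicate 4 had only 6 counts of C3ar1, WT replicate 5 had the high choroid plexus level, and PS19 replicates 4 to 6 were near-identical. The difference between the sets was -0.56 (SE 0.48, adjusted p = 0.682, edgeR interaction).

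The call rested on moderate evidence. The adjusted p (edgeR) was 0.0538 without WT replicate 5, 0.0510 with only WT and CgA-KO/PS19 in the fit, 0.0574 with near-identical libraries averaged, 0.0757 without CgA-KO/PS19 replicates 1 to 3, 0.0756 in replicates 1 to 3 alone and 0.117 with the choroid plexus list as a covariate. Per summed microglia marker, C3ar1 was at 0.00285 to 0.00843 in WT libraries, 0.00692 to 0.0171 in PS19 libraries and 0.00992 to 0.0226 in those of CgA-KO/PS19, so that WT and CgA-KO/PS19 did not overlap on that scale either. Of the 10 markers, 1 was called higher and 1 lower in CgA-KO/PS19 against WT, beside 3.56% and 2.89% of all genes. With the microglia list as a covariate the log2 fold change of C3ar1 was 1.17 (adjusted p = 0.0142, edgeR, chosen after seeing the data). The genes most like C3ar1 were Ifit3b and Ifit3, which are induced by interferon, with r of 0.91 and 0.88, and ENSMUSG00000120162, with r of 0.87.

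Serping1 (chr2:84765387-84775444), the inhibitor of C1r and C1s, was at 1.53, 3.75, 3.64, 1.48 and 3.57 CPM in WT. Its lowest, median and highest levels were 2.00, 5.00 and 7.05 CPM in PS19 and 1.81, 3.57 and 5.11 CPM in CgA-KO/PS19. All PS19 libraries but replicate 1 lay above every WT library. The log2 fold change was 0.71 in PS19 against WT (SE 0.32, 95% interval 0.04 to 1.38, adjusted p = 0.206, edgeR). Between CgA-KO/PS19 and PS19 it was -0.44 (SE 0.30, -1.07 to 0.18, adjusted p = 0.347). The genes most like Serping1 were Aldh1a2, Col1a2 and Gjb2 (r 0.97, 0.93 and 0.91 over 17 libraries), genes known from meningeal cells. The 8 markers of meningeal and perivascular fibroblasts, which include Col1a2, summed to 18.7 to 151.9 CPM in WT libraries, 39.5 to 122.9 in PS19 libraries and 51.9 to 98.2 in those of CgA-KO/PS19, and their part in the levels of Serping1 was not tested.

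Of 53 other complement genes in 7 lists by role, 38 passed the filter on low counts. In PS19 against WT, 4 of the 38 were higher and 2 lower, beside 1.95% and 3.95% of all genes. Against PS19, CgA-KO/PS19 had 1 higher and 3 lower, beside 5.5% and 4.22%. Against WT, it had 1 higher and 3 lower, beside 3.56% and 2.89%. The 15 genes that were not tested had at most 83 counts in any library, and 6 of them, Mbl1, Fcnb, Cfd, C6, C9 and Cpn2, were at 0 counts in every library.

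**Figure D5:**
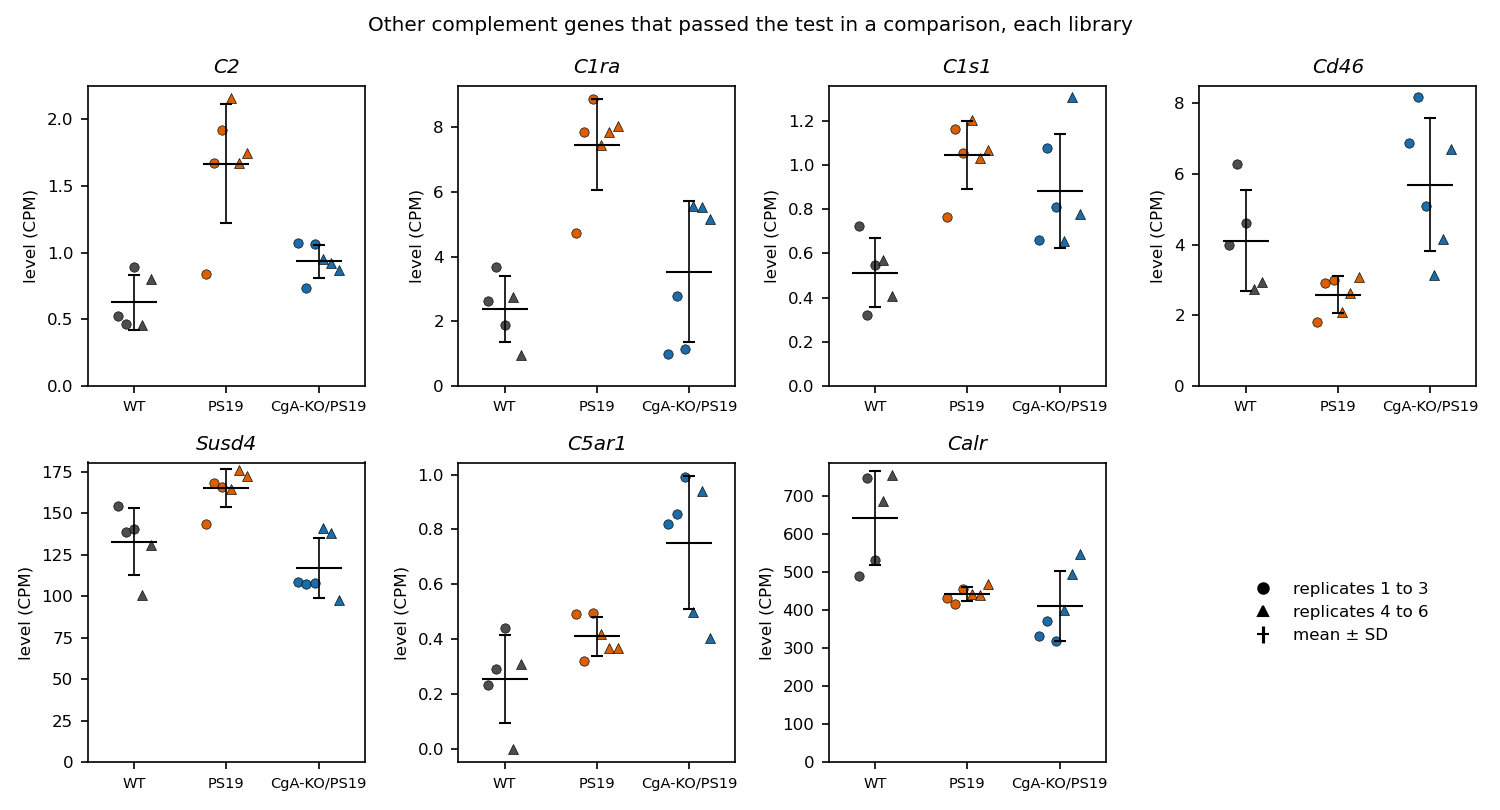
Level in CPM (vertical axis) of 7 other complement genes that passed the test in at least 1 comparison, in each library by genotype, with circles for replicates 1 to 3, triangles for replicates 4 to 6 and bars for the mean ± SD. C2, C1ra and C1s1 were higher in PS19 than in WT, and against PS19 the CgA-KO/PS19 libraries had more Cd46 and less Susd4.

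Of 7 genes in the list of classical components and C4a, all 7 were tested. In PS19 against WT, C2, C1ra and C1s1 rose and 0 of 7 fell, beside 1.95% of all genes higher and 3.95% lower, and the list's median log2 fold change was 1.06 beside 0.01 over all genes. The proteases C1rb (1.61, adjusted p = 0.138, edgeR) and C1rl (-0.02, adjusted p = 0.983) did not pass, nor did C1s2 and C4a. C2, the serine protease that forms the C3 convertase with C4b protein, was at 0.521, 0.461, 0.894, 0.456 and 0.801 CPM in WT. It had a lowest, median and highest level of 0.838, 1.71 and 2.16 CPM in PS19 and of 0.737, 0.937 and 1.07 CPM in CgA-KO/PS19. All PS19 libraries but replicate 1 lay above every library of the other genotypes. C2 was 2.56-fold higher in PS19 than in WT (log2 1.36, SE 0.25, adjusted p = 0.00338, edgeR), and fell by 0.83 on the log2 scale in CgA-KO/PS19 against PS19 (SE 0.23, adjusted p = 0.0293). The first call held in 32 of 33 alternatives, and the second in 22 of 33, being lost without any one of PS19 replicates 2 to 6 or without CgA-KO/PS19 replicate 2. The second call was also lost with the replicate number as a block and without CgA-KO/PS19 replicates 1 to 3. Replicates 1 to 3 alone, replicates 4 to 6 alone and near-identical libraries averaged lost it too.

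C1ra, a C1r protease that C1q activates, was at 2.63, 3.67, 1.89, 2.74 and 0.946 CPM in WT and at 4.74 to 8.86 CPM in PS19, with no overlap, as for 5.13% of all genes in that direction. It was 3.19-fold higher in PS19 (log2 1.67, SE 0.44, adjusted p = 0.0296, edgeR), a call kept in 22 of 34 alternatives. It was lost without WT replicate 3 or 5 or any one of PS19 replicates 2 to 6, and the log2 fold change turned to -0.46 with the striatum list as a covariate. The C1ra call was also lost with the choroid plexus list, with the replicate number as a block, in replicates 1 to 3 and with near-identical libraries averaged. In CgA-KO/PS19 it was at 0.981, 2.79 and 1.14 CPM in replicates 1 to 3 and at 5.57, 5.53 and 5.17 CPM in replicates 4 to 6, and the difference between the sets passed the interaction test in CgA-KO/PS19 against WT (-2.53, SE 0.66, adjusted p = 0.0374). C1s1, a C1s protease, was at 0.723, 0.323, 0.546, 0.570 and 0.406 CPM in WT and at 0.765 to 1.20 CPM in PS19, again with no overlap. It was 2.09-fold higher in PS19 (log2 1.06, SE 0.25, adjusted p = 0.0175), a call kept in 26 of 33 alternatives. The C1s1 call was lost without WT replicate 5, with the striatum or choroid plexus list as a covariate and with the replicate number as a block. It was also lost in replicates 1 to 3, in replicates 4 to 6 and with near-identical libraries averaged. C1ra and C1s1 have the near copies C1rb and C1s2 in the same cluster on chromosome 6, and their counts are uncertain to the extent that reads were split.

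The lectin pathway starts on sugars, and 4 of its 8 listed genes were tested. Masp2, its main C4 and C2 protease, was at 0.318, 0.922, 1.40, 0 and 1.26 CPM in WT and at most 0.258 CPM in CgA-KO/PS19. It fell by 2.52 on the log2 scale in CgA-KO/PS19 against WT (SE 0.59, adjusted p = 0.0179, edgeR), with 0 counts in WT replicate 4. The call held in 24 of 33 alternatives. It was lost without WT replicate 3 or 5, with the striatum or choroid plexus list as a covariate and with only 2 genotypes in the fit. The replicate block, replicates 4 to 6 alone, near-identical libraries averaged and leaving out CgA-KO/PS19 replicates 1 to 3 also lost it. In the alternative pathway, 0 of 2 tested genes passed in any comparison. Its most abundant gene, Cfp, encodes properdin and was at 2.11 ± 1.26 CPM in WT libraries (SD, n = 5), 1.85 ± 0.785 in PS19 libraries and 2.84 ± 1.06 in those of CgA-KO/PS19 (SD, n = 6 each). Of the terminal components, which form the membrane pore, 2 of 7 were tested and 0 passed, with C8g at 0.611 ± 0.347, 0.724 ± 0.134 and 0.607 ± 0.289 CPM in the same order.

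Among receptors and ligands of phagocytosis, 9 of 10 genes were tested. C5ar1, the receptor for C5a, was at 0.231, 0.292, 0.439, 0 and 0.309 CPM in WT and had a lowest, median and highest level of 0.404, 0.839 and 0.991 CPM in CgA-KO/PS19. It exceeded WT in CgA-KO/PS19 by 1.37 on the log2 scale (SE 0.36, adjusted p = 0.0307, edgeR), with 0 counts in WT replicate 4, and the call held in 20 of 33 alternatives. It did not pass with WT replicate 1, 2 or 5 or CgA-KO/PS19 replicate 1, 2 or 3 left out. Nor did it pass without a filter, with only 2 genotypes in the fit, with the replicate block or with the choroid plexus list. The call was also lost in replicates 4 to 6, without CgA-KO/PS19 replicates 1 to 3 and with near-identical libraries averaged. Lrp1, an endocytic receptor also known for the uptake of tau, was at 343.3 ± 40.4 CPM in WT libraries (SD, n = 5), 448.9 ± 24.1 in PS19 libraries and 342.2 ± 45.8 in those of CgA-KO/PS19 (SD, n = 6 each). It rose by 0.39 in PS19 against WT (SE 0.11, adjusted p = 0.0372) and fell by 0.39 in CgA-KO/PS19 against PS19 (SE 0.10, adjusted p = 0.0230). The first of these calls held in 19 of 34 alternatives and was lost without WT replicate 3, 4 or 5 or without any one of PS19 replicates 2 to 6. It was also lost with the striatum or choroid plexus list as a covariate, with the replicate block and without a filter. Replicates 1 to 3 alone, replicates 4 to 6 alone and near-identical libraries averaged lost it too. The second held in 29 of 34. It was lost without CgA-KO/PS19 replicate 2, without CgA-KO/PS19 replicates 1 to 3, in replicates 4 to 6, with the replicate block and with near-identical libraries averaged. Calr, which encodes the C1q-binding chaperone calreticulin, fell by 0.54 in PS19 against WT (SE 0.14, adjusted p = 0.0354) and by 0.65 in CgA-KO/PS19 against WT (SE 0.14, adjusted p = 0.0139). The first of these calls held in 21 of 34 alternatives and was lost without WT replicate 2, 4 or 5 or without any one PS19 library. It was also lost without a filter, with the choroid plexus list, in replicates 1 to 3 and with near-identical libraries averaged. The second held in 28 of 34. It was lost without WT replicate 5, without CgA-KO/PS19 replicates 1 to 3, in replicates 4 to 6 and with only 2 genotypes in the fit. The choroid plexus list as a covariate and averaging near-identical libraries also lost it.

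Of the regulators on membranes, 9 of 10 genes were tested. Cd46, a cofactor for the cleavage of C3b and C4b, had a lowest, median and highest level of 1.80, 2.77 and 3.07 CPM in PS19 and of 3.15, 5.90 and 8.17 CPM in CgA-KO/PS19. The groups did not overlap, as for 2.84% of all genes in that direction, and Cd46 was 2.19-fold higher in CgA-KO/PS19 (log2 1.13, SE 0.24, adjusted p = 0.00978, edgeR). Susd4, a brain-enriched regulator with complement control domains, had 143.3, 167.2 and 176.1 CPM in PS19 and 97.9, 108.5 and 141.2 CPM in CgA-KO/PS19, again with no overlap (3.79% of all genes in that direction), and fell by 0.50 on the log2 scale (SE 0.11, adjusted p = 0.0125). Neither call held in replicates 4 to 6 alone, without CgA-KO/PS19 replicates 1 to 3 or with near-identical libraries averaged. Csmd3, a large neuronal protein with complement control domains, fell by 0.53 in PS19 against WT (SE 0.11, adjusted p = 0.00973) and by 0.41 in CgA-KO/PS19 against WT (SE 0.12, adjusted p = 0.0392). The first call held in 29 of 34 alternatives, with log2 fold changes from -0.74 to -0.16. It was lost with the replicate block, with the striatum or choroid plexus list as a covariate, in replicates 1 to 3 and with near-identical libraries averaged. The second held in 12 of 34 alternatives. Among others, it was lost without WT replicate 3 or 5, without any one of PS19 replicates 2 to 6, or without CgA-KO/PS19 replicate 2, 4, 5 or 6. Of the soluble regulators, 5 of 8 were tested and 0 passed, with Clu, the gene for clusterin, the most abundant at 398.6 ± 39.2 CPM in WT libraries, 404.8 ± 20.1 in PS19 libraries and 507.0 ± 104 in those of CgA-KO/PS19.

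The level of the striatum list did not overlap between WT and PS19, and it moved the C1q and C4b values when it was entered as a covariate. PS19 against WT then gave 0.93 for C1qa (SE 0.26, adjusted p = 0.0226, edgeR), 0.87 for C1qb (SE 0.17, adjusted p = 0.00457), 1.35 for C1qc (SE 0.23, adjusted p = 0.00289) and 2.04 for C4b (SE 0.52, adjusted p = 0.0141). The covariate gave, in CgA-KO/PS19 against PS19, -0.68 for C1qa (SE 0.18, adjusted p = 0.0383) and -0.72 for C1qc (SE 0.16, adjusted p = 0.0220). Over all 23062 genes, the covariate left 1580 called higher and 2319 lower in PS19 against WT, beside 450 and 911 without it. In CgA-KO/PS19 against PS19 it left 839 called higher and 558 lower, beside 1268 and 974. Since no PS19 library had a striatum level within the WT range, genotype and tissue taken cannot be told apart in PS19 against WT.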

How the data were processed

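Poly(A) RNA of prefrontal cortex was sequenced as paired-end reads of 100 bases. Per the labels and the methods of the study, the authors trimmed reads with Trimmomatic 0.39, aligned them to mm10 with STAR 2.7.10b and assembled counts with StringTie 1.3.6 and prepDE. The deposited values are raw counts per gene, not normalized, with 1 column per library and 0 columns of other samples. The annotation release and the use of strand are not given in the sources used here. Low counts piled up at 3 in 17 of 17 libraries relative to 2 and 4, so that 1 fragment often gave several counts and counting error is larger than the totals imply.

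Genes were filtered with filterByExpr by genotype, which left 23062, scaled by TMM and tested with the quasi-likelihood test of edgeR 4.0.16 (R 4.3.3) in 1 fit of all 17 libraries with no covariate. A gene was called at a Benjamini-Hochberg adjusted p under 0.05 over all genes tested. SEs are the log2 fold change over the root of F. On counts simulated for PS19 against WT, with 200 of 22557 genes changed by a log2 fold of 2, 195 were recovered with 8 false calls. DESeq2 recovered 197 with 45 false calls. The changed genes had a mean above 1 CPM, so that recovery of smaller changes or of lower genes was not tested. Alternatives used DESeq2 1.42.0, limma 3.58.1, other filters, scalings and covariates, subsets of replicates, and each library left out in turn. The study's methods state DESeq2. The microglia covariate, leaving out CgA-KO/PS19 replicates 1 to 3 and the test between the sets of replicates were chosen after seeing the data.

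The labels name separate samples, the study counts 5 or 6 mice per genotype, and the p-values measure the spread between these samples. The 7 genes and all lists were chosen with earlier results of these data known. Named were all 7 genes and, of each other complement list, up to 4 called genes or, with none called, the most abundant, and for each of the 7 genes the 3 most correlated genes with a mean of at least 1 CPM. Gene positions come from GENCODE M21 (52029 of 56953 genes matched). Replicate numbers did not pair the samples, since deviations of same-numbered libraries from their group means correlated between -0.23 and 0.44. No protein sequence was used here.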

Additional observations from a re-analysis of the deposited data

Results flagged for a closer look

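In 21 groups (7 genes in 3 genotypes), 2 libraries stood apart from the rest of their group by Dixon's test, where chance alone gives about 1 in 20. C3 in CgA-KO/PS19 replicate 2 was at 0.657 CPM, the highest of its group, with a gap to the next library of 0.724 of the group's range. C4b in PS19 replicate 1 was at 6.79 CPM, the lowest of its group, with a gap of 0.656 of a range that was itself narrow, from 6.79 to 8.00 CPM.

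The comparison of CgA-KO/PS19 with PS19 differed between replicates 1 to 3 and replicates 4 to 6 for C1qb, by 0.868 on the log2 scale, and for C1qc, by 1.11, each past the threshold of the interaction test. Ddx3y and, in CgA-KO/PS19, the mitochondrial share and the sums of the striatum and astrocyte lists differ between the same sets, and their part in the result was not tested.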

How the results depend on the processing

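Of the 7 genes, the number called in PS19 against WT was 0, but 1 with Ddx3y as a covariate, 4 with the striatum list and 2 in replicates 4 to 6. Over all genes, the main fit called 450 higher and 911 lower of 23062. With Ddx3y these were 537 and 974, with the striatum list 1580 and 2319, and 674 and 694 of 23562 in replicates 4 to 6. Between CgA-KO/PS19 and PS19, the number of the 7 genes called was 0, but 2 with the striatum list and 2 in replicates 1 to 3. Over all genes, 1268 were called higher and 974 lower in the main fit. With the striatum list these were 839 and 558, and in replicates 1 to 3 they were 3214 and 3499 of 21613. Between CgA-KO/PS19 and WT, the number of the 7 genes called was 1, but 4 with the striatum list and 2 in replicates 1 to 3. It was 0 with at least 10 counts in every library (C3ar1 then not tested) or only 2 genotypes in the fit. It was also 0 with the choroid plexus list as a covariate, the libraries of high mitochondrial share left out, or near-identical libraries averaged. Over all genes, 822 were called higher and 667 lower in the main fit. With the striatum list these were 2277 and 2690, and in replicates 1 to 3 they were 1979 and 2495 of 21613. In the settings with 0, they were 769 and 590 of 14521, 151 and 115 of 20459, and 144 and 118 of 23062. The last of them gave 436 and 546 of 23618, and 307 and 272 of 22409, in the order above. With 1 library left out, the number of the 7 genes called was 0 in the first and second comparison. In the third it was 0 (without WT replicate 5) to 1. DESeq2, its size factors, limma voom, the robust fit, no filter and counts divided by 3 left the counts of the 7 genes as they were. Except for the limits of filters and smaller subsets, the cause was not tested.

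Of the other complement genes, 6, 4 and 4 were called in the 3 comparisons in the order above. In PS19 against WT it was 13 with limma voom, 3 with the striatum list, 1 with the choroid plexus list and 0 in replicates 1 to 3. It was 1 with near-identical libraries averaged, and 2 to 9 with 1 library left out. Over all 23062 genes, limma voom called 1868 higher and 2099 lower. The striatum list gave 1580 and 2319, and the choroid plexus list 16 and 138. Replicates 1 to 3 gave 30 and 98 of 21613, and averaging gave 74 and 351 of 22409. For CgA-KO/PS19 against PS19, the count of other complement genes was 8 with DESeq2 and 7 with 2 genotypes in the fit. It was 10 with limma voom, 7 with counts divided by 3 and 0 with high mitochondrial libraries left out. It was 13 in replicates 1 to 3, 0 in replicates 4 to 6, 0 with near-identical libraries averaged, and 2 to 9 with 1 library left out. Over all genes, DESeq2 called 2338 higher and 1620 lower of 25967, and 2 genotypes 1550 and 1319 of 21837. Limma voom called 2379 and 2850 of 23062, and divided counts 1792 and 1170 of 19340. Leaving out the high mitochondrial libraries gave 230 and 116 of 23618. Replicates 1 to 3 gave 3214 and 3499 of 21613, replicates 4 to 6 gave 128 and 62 of 23562, and averaging 114 and 54 of 22409. For CgA-KO/PS19 against WT, the count of other complement genes was 2 without a filter, 1 with at least 10 counts and 0 with 2 genotypes in the fit. It was 0 with the choroid plexus list, 2 with high mitochondrial libraries left out and 9 in replicates 1 to 3. It was 1 in replicates 4 to 6, 0 with near-identical libraries averaged, and 0 to 6 with 1 library left out. Over all genes, no filter called 504 higher and 513 lower of 39993. Replicates 4 to 6 gave 339 and 379 of 23562. The calls over all genes in the other settings of this comparison are given above with those of the 7 genes.

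With the replicate number as a block, other complement genes called were 2, 1 and 1 in the 3 comparisons. Over all 23062 genes the block gave 147 higher and 513 lower, 388 and 266, and 325 and 289 in the same order. C1qb in CgA-KO/PS19 against PS19 turned to -0.0095 and C4b in PS19 against WT to 0.33. The block changed no call of the 7 genes, and the replicate numbers do not pair the samples.

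Fold changes near 0 turned sign elsewhere. In PS19 against WT, C1qa turned to -0.021 with limma voom, -0.12 in replicates 1 to 3 and -0.036 without WT replicate 4 (highest 0.20 with 1 library left out), and C4b to 0.13 with Ddx3y, 2.04 with the striatum list, 0.21 with the choroid plexus list, 0.047 with the microglia list, 0.49 in replicates 4 to 6, and 0.058, 0.16 and 0.052 without WT replicate 2, 3 or 5 (lowest -0.29 with 1 library left out). In CgA-KO/PS19 against PS19, C1qa turned to 0.13 and C1qc to 0.28 in replicates 1 to 3. There C1qb turned to -0.020 without a filter, -0.28 with the striatum list, -0.34 with high mitochondrial libraries left out, -0.45 in replicates 4 to 6, -0.013 with near-identical libraries averaged, and -0.0078, -0.085 and -0.051 without PS19 replicate 1 or CgA-KO/PS19 replicate 1 or 3 (highest 0.12 with 1 library left out). C3 turned to -0.73 with high mitochondrial libraries left out, -0.90 in replicates 4 to 6 and -0.34 without CgA-KO/PS19 replicate 2 (highest 0.75 with 1 library left out), and C4b to -0.24 with the striatum list, -0.21 with high mitochondrial libraries left out and -0.26 in replicates 4 to 6. In CgA-KO/PS19 against WT, C1qa turned to 0.25 with the striatum list and 0.0062 in replicates 1 to 3, C1qb to -0.068, C1qc to -0.31 and C4b to -0.24 with high mitochondrial libraries left out, C1qc to -0.032 in replicates 4 to 6, C3 to 0.29 and Serping1 to -0.17 in replicates 1 to 3, and Serping1 to -0.070 with limma voom.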
